A study of Mus musculus with 4 samples.

Results

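Differentiated skeletal myotube-like cells were examined in mouse inner ear organoids, 3-dimensional cultures grown from embryonic stem cells. A barcode was counted as such a cell when it held at least 500 genes, at most 10% mitochondrially encoded UMIs (unique molecular identifiers, each standing for 1 captured RNA molecule), and at least 2% of its UMIs from the 7 genes Acta1, Myl1, Myl4, Mylpf, Tnnc1, Tnnc2 and Tnnt3. These 7 genes encode sarcomeric actin, myosin light chains, troponin C and troponin T. The rule found 1545 myotube-like cells among 35853 kept barcodes, or 4.31%. They numbered 147 of 6729 kept barcodes in KO at day 35, 506 of 8166 in WT at day 35, 436 of 11190 in KO at day 25 and 456 of 9768 in WT at day 25.

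KO stands for the R1/E-Tmprss3KO-GFPKI line, in which the serine protease gene Tmprss3 is knocked out and GFP knocked in, and WT for its R1/E parent line, both of 129X1x129S1 origin. Organoids were dissociated at day 35 or day 25, and 1 droplet library was made per genotype and day. With 1 library per group there is no replicate error and no test. Intervals are exact and 95%, and they cover counting error only. The labels give 1 line per genotype, so genotype, line and differentiation run cannot be told apart.

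Skeletal myotubes form when proliferating Pax7- and Myf5-positive progenitors express Myod1 and Myog, leave the cell cycle and fuse under the control of the membrane proteins myomaker and myomixer. The young myotube assembles sarcomeres from developmental isoforms, such as embryonic and neonatal myosin heavy chain and cardiac alpha actin, and later exchanges them for adult skeletal ones. It also builds the triad, where the voltage sensor Cacna1s faces the calcium release channel Ryr1, and a fetal acetylcholine receptor. Inner ear organoids are cultured for otic epithelium, and muscle is not a part of that epithelium.

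The libraries differed in depth and quality in ways that touch every comparison. Myotube-like cells had a median of 6840 UMIs in KO and 5134.5 in WT at day 35, and 11151 in KO and 11271.5 in WT at day 25. This was 1.56 to 1.87 times the median of all other kept barcodes of the same library. Of the barcodes that met the limits on genes and on the 7 genes, the mitochondrial limit removed 65 of 212 in KO and 296 of 802 in WT at day 35. It removed 29 of 465 in KO and 31 of 487 in WT at day 25. Thus 30.7% and 36.9% were lost at day 35, against 6.24% and 6.37% at day 25. Of all barcodes with at least 500 genes, the limit removed 4.89% in KO and 11.6% in WT at day 35. At day 25 it removed 1.01% in KO and 1.96% in WT. Barcodes that met the rule on the 7 genes were thus removed at a higher share in each library. Of 36933 distinct barcode sequences, 661 occurred in more than 1 library, and 1 was a myotube-like cell in more than 1. Tmprss3 itself gave 0 UMIs in KO and 0 in WT myotube-like cells at day 35, and 1 in KO and 0 in WT at day 25, too few to check the genotype labels in these cells.

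The 7 genes that chose the cells made up a median of 5.42% of UMIs per cell in KO and 5.36% in WT at day 35, and 4.61% in KO and 4.55% in WT at day 25. Their highest share in any cell was 18.8%. Outside the chosen cells they were 0.0419% to 0.146% of all UMIs. Just inside the threshold, at 2% to 3%, lay 26 and 91 cells in KO and WT at day 35 and 104 and 90 in KO and WT at day 25. Just outside it, at 1% to 2%, lay 48 and 195 barcodes in KO and WT at day 35 and 140 and 136 in KO and WT at day 25. The threshold therefore cut through a continuous range of cells.

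Skeletal muscle markers outside the rule bore out the name of the cells. All 15 such markers were at least 5-fold higher in the myotube-like cells than in the other kept barcodes of each of the 4 libraries, as a description of cells that were chosen by related genes. The list summed to 10441 CPM (a gene's UMIs per 1000000 UMIs of the summed cells) in KO and 8769 CPM in WT at day 35, and to 11374 CPM in KO and 11272 CPM in WT at day 25. It holds Myog (myogenin), Tmem8c (myomaker), the creatine kinase Ckm, desmin, titin, nebulin, Ryr1, Cacna1s and the acetylcholine receptor subunits Chrna1 and Chrng. The 20 genes that stood furthest above the rest began with the 7 rule genes. They went on with Tnni1 and Tnni2 (slow and fast troponin I), Sln (sarcolipin, a regulator of the calcium pump), the muscle caveolin Cav3, Myh8, Mybph, the muscle enolase Eno3, Csrp3, Myh3, the muscle phosphoglycerate mutase Pgam2, Tnnt2, Ckm and Ttn.

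Markers of other cell types were low, with some exceptions. The cardiac, smooth muscle and progenitor sums stood above those of the other barcodes in each library. The 8 cardiac markers summed to 11 to 37.9 CPM, against 1.97 to 4.39 CPM in the other barcodes. Nppa, Nppb and Tbx5 were at 0 UMIs in the myotube-like cells of all 4 libraries. Myh6, which encodes an atrial myosin heavy chain, had 5 and 35 UMIs in KO and WT at day 35 and 69 and 201 in KO and WT at day 25. Its level was 28.3 to 47.9 times that of the other barcodes. The 7 fibroblast markers summed to 1196 CPM in KO and 931.8 CPM in WT at day 35, and to 1245 CPM in KO and 811 CPM in WT at day 25. The other barcodes held 6934 to 10165 CPM of these fibroblast genes, and the part of free RNA in the myotube-like cells was not tested. The 5 smooth muscle markers summed to 980 to 2321 CPM, almost wholly through Acta2, a smooth muscle actin that developing skeletal muscle also makes, and Smtn. Acta2 was at 6.19 to 12.7 times its level in the other barcodes. Myh11, the defining smooth muscle myosin, had at most 3 UMIs in any library. Of the progenitor markers, Myf5 was at 1.35 to 1.95 times and Pax7 at 0.164 to 0.694 times the level of the other barcodes. Pax3 went both ways. Markers of another cell type reached 1% of UMIs in 8 KO and 19 WT myotube-like cells at day 35, and in 10 KO and 6 WT cells at day 25.

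Myotube-like cells were a smaller share of KO than of WT barcodes at day 35. The share was 2.18% (1.85 to 2.56) in KO and 6.20% (5.68 to 6.74) in WT at day 35, a KO over WT ratio of 0.353 (0.291 to 0.424). At day 25 it was 3.90% (3.55 to 4.27) in KO and 4.67% (4.26 to 5.11) in WT, a ratio of 0.835 (0.730 to 0.954). Between days the libraries moved apart. The ratio of day 35 to day 25 was 0.561 (0.462 to 0.677) in KO and 1.33 (1.17 to 1.51) in WT, and the difference between these ratios was not tested. With no mitochondrial limit the ratios of days were 0.728 in KO and 1.78 in WT, and with a limit of 5% they were 0.439 in KO and 1.10 (0.912 to 1.33) in WT. The day 35 ratio of KO over WT lay between 0.316 and 0.374 under all 8 other ways of choosing the cells.

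**Figure D1:**
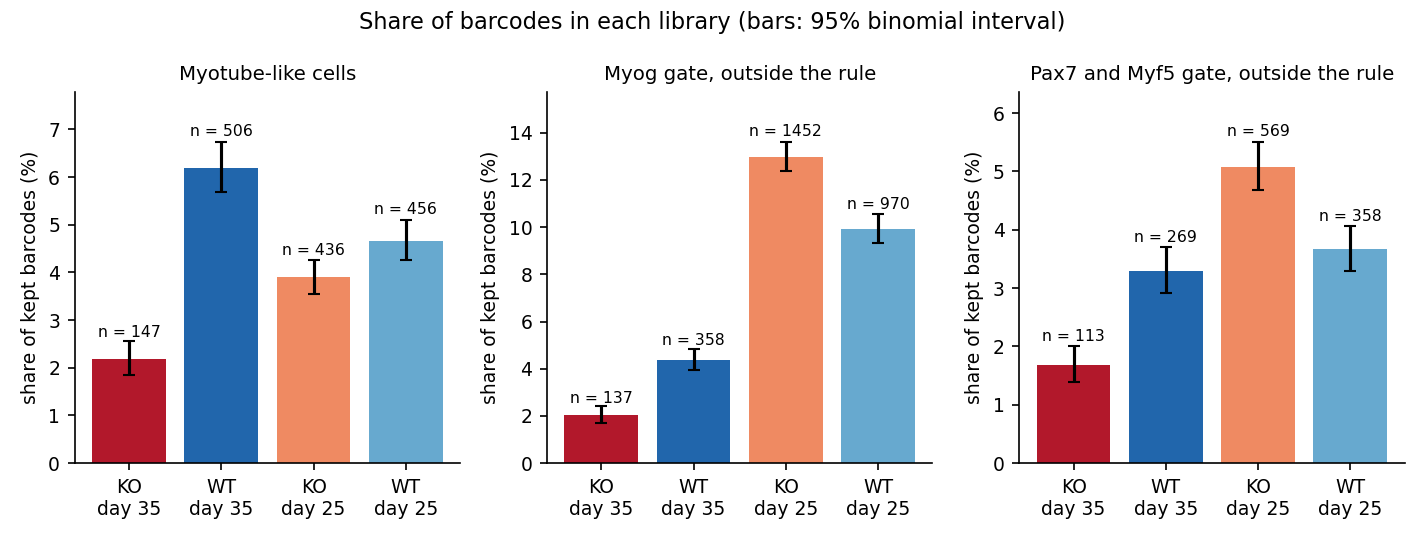
Share of kept barcodes (percent, y axis) in each of the 4 libraries for myotube-like cells (left), for Myog-positive barcodes outside the rule (middle) and for Pax7- and Myf5-positive barcodes outside the rule (right); bars with exact 95% binomial intervals, n is the number of barcodes. Myotube-like cells were 2.18% in KO and 6.20% in WT at day 35, and 3.90% in KO and 4.67% in WT at day 25.

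Less differentiated muscle cells were counted in the same libraries with gates that the rule did not use. Barcodes outside the rule with at least 2 UMIs of Myog, as committed myoblasts have, were 2.04% of kept barcodes in KO and 4.38% in WT at day 35, a ratio of 0.464 (0.379 to 0.567). At day 25 they were 13.0% in KO and 9.93% in WT, a ratio of 1.31 (1.20 to 1.42). Barcodes outside the rule with at least 2 UMIs of Pax7 and Myf5 together, as progenitors have, were 1.68% in KO and 3.29% in WT at day 35, and 5.08% in KO and 3.67% in WT at day 25. All 3 populations were thus lower in the KO library at day 35, while at day 25 the KO library had more of both gated populations and fewer myotube-like cells. The progenitor ratios of KO over WT were 0.510 (0.406 to 0.637) at day 35 and 1.39 (1.21 to 1.59) at day 25.

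The 3 populations were compared gene by gene. The gates fix the levels of Pax7, Myf5 and Myog, and since both leave out barcodes with 2% or more of UMIs from the rule genes, they also hold down sarcomere genes, so the levels are a description. Tmem8c, whose product myomaker is required for fusion, stood at 1.7 to 8.3 CPM in the progenitor gate, 171.1 to 245.1 CPM in the Myog gate and 418.8 to 569.2 CPM in the myotube-like cells. Cdkn1a, the cell cycle inhibitor p21, was at 258 to 408.3 CPM, 502.5 to 757.3 CPM and 1292.4 to 1523.1 CPM in the same order. Cdk1, the mitotic kinase, ran the other way, at 167.5 to 330.0 CPM, 65.6 to 140.7 CPM and 5.5 to 25.7 CPM. Embryonic myosin Myh3, a sarcomere gene, was at 5.04 to 9.4 CPM in the progenitor gate and 33.7 to 64.4 CPM in the Myog gate, against 419.8 to 876.5 CPM in the myotube-like cells.

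The myosin heavy chains of the myotube-like cells were mostly developmental. Of the 10 sarcomeric heavy chain genes counted, embryonic Myh3 and neonatal Myh8 together held 84.9% of UMIs in KO and 88.2% in WT at day 35, and 93.9% in KO and 91.2% in WT at day 25. Myh3 alone held 29.0% in KO and 29.1% in WT at day 35, and 40.9% in KO and 46.8% in WT at day 25. Myh8 held 55.9% in KO and 59.2% in WT at day 35, and 53.0% in KO and 44.4% in WT at day 25. In KO and in WT alike, Myh3 was thus a smaller share at day 35 and Myh8 a larger one. Myh7, the slow and cardiac heavy chain, held 2.67% to 6.13%.

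Adult fast myosins were a minor share that was highest in the KO library at day 35. Myh1, Myh2 and Myh4 (types IIx, IIa and IIb) together held 9.18% (7.86 to 10.6) in KO and 4.42% (3.82 to 5.08) in WT at day 35. At day 25 they held 2.36% (2.08 to 2.66) in KO and 1.5% (1.28 to 1.75) in WT. Myh1 held 5.06% in KO and 2.28% in WT at day 35, against 1.03% in KO and 0.315% in WT at day 25. In KO at day 35, 5 cells held 66.7% of the 57 Myh2 UMIs, 50% of the 14 Myh4 UMIs and 36.8% of the 87 Myh1 UMIs. In WT at day 35, with more cells, 5 cells held 18.8%, 42.9% and 28.1%. UMIs count molecules and are not scaled by transcript length. Myh1, Myh2, Myh3, Myh4 and Myh8 are neighbouring paralogs of like sequence, and how reads shared between them were counted is not given in the sources used here.

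Other contractile families shifted in different directions between days. Actc1, the cardiac alpha actin of early muscle, was 10.7% of sarcomeric alpha actin UMIs in KO and 9.57% in WT at day 35, and 30.2% in KO and 39.1% in WT at day 25. Its level was 2152 CPM in KO and 1784 CPM in WT at day 35, and 5660 CPM in KO and 7912 CPM in WT at day 25. Acta1, a gene of the rule, was at 17874 CPM in KO and 16853 CPM in WT at day 35, and at 13056 CPM in KO and 12342 CPM in WT at day 25. Fast troponin T, Tnnt3 (also a gene of the rule), was 49.99% and 50.2% of troponin T UMIs in KO and WT at day 35 and 42.1% and 40.9% in KO and WT at day 25. Since Acta1 and Tnnt3 helped to choose the cells, the actin and troponin T shares are tied to the rule and are given as a description. Troponin I, with no gene in the rule, went towards the slow isoform. Tnni1 held 56.0% in KO and 50.7% in WT at day 35, and 46.7% in KO and 46.1% in WT at day 25, the rest being almost wholly the fast Tnni2. The fast calcium pump Atp2a1 held 89.1% of Atp2a1 and Atp2a2 UMIs in KO and 80.6% in WT at day 35, and 85% in KO and 80.5% in WT at day 25. The acetylcholine receptor remained fetal, since Chrng (the fetal gamma subunit) held 99.4% or more of the UMIs of Chrng and the adult subunit Chrne in each library.

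**Figure D2:**
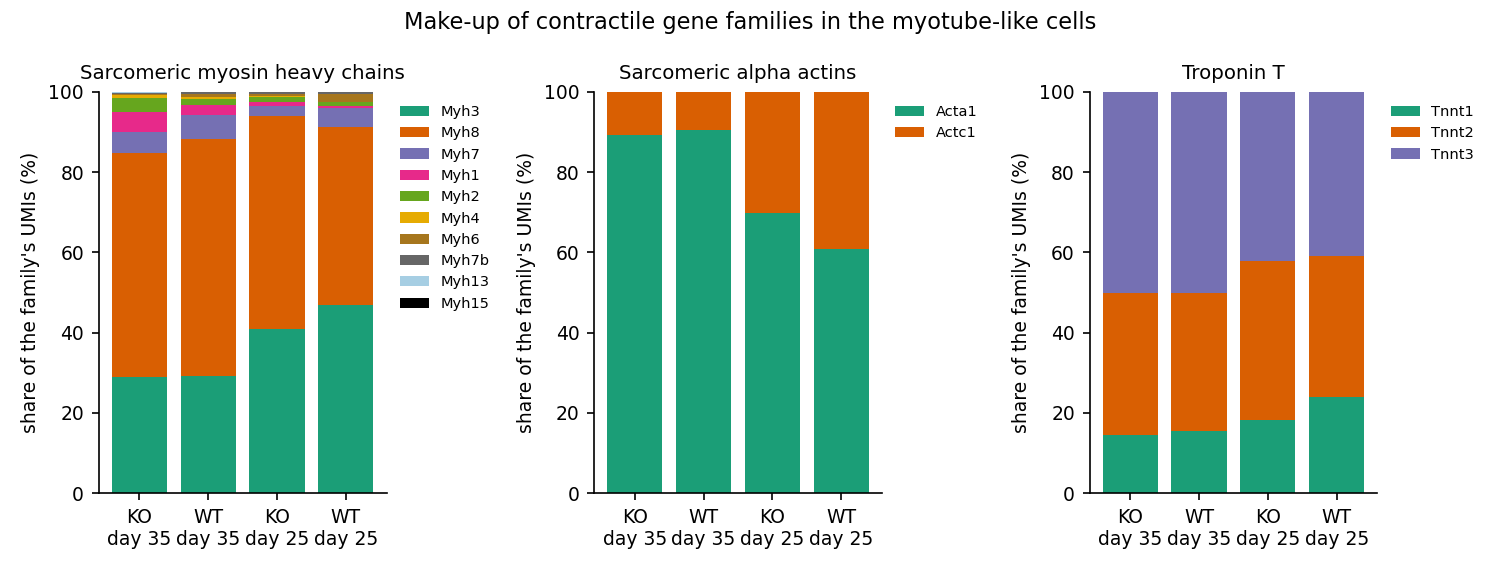
Make-up of 3 contractile gene families in the myotube-like cells, as the share of each family's UMIs (percent, y axis) in each library: sarcomeric myosin heavy chains, sarcomeric alpha actins and troponin T. Myh3 and Actc1 took smaller shares in both day 35 libraries (29.0% and 29.1% for Myh3) than in both day 25 libraries (40.9% and 46.8%).

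The promoters of the actin and myosin genes that made these shares are shown because the genes share a cell and differ in timing. They are the 250 bases before the RefSeq start (GRCm38.p6), on the strand of the gene and 5′ to 3′. Capitals mark 3 motifs that muscle transcription factors are known to bind: the E-box CAGCTG (myogenic bHLH factors such as Myod1), the CArG box (serum response factor), and the MEF2 box (MEF2 factors).
Acta1, chr8:123894776-123895025, minus strand: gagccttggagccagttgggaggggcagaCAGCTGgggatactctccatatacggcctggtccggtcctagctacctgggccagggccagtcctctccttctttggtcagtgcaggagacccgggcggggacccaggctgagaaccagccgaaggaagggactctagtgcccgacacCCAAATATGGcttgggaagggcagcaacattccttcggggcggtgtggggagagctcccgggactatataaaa
Actc1, chr2:114052876-114053125, minus strand: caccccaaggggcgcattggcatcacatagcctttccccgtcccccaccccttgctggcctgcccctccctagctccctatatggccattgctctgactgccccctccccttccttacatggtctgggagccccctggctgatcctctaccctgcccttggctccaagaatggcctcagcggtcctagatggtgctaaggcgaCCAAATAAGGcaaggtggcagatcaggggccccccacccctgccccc
Myh3, chr11:67078050-67078299, plus strand: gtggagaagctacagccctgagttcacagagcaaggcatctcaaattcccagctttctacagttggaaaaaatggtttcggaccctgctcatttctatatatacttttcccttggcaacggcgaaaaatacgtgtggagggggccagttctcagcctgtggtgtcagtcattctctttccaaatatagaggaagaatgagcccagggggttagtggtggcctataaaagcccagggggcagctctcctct
Myh8, chr11:67276874-67277123, plus strand: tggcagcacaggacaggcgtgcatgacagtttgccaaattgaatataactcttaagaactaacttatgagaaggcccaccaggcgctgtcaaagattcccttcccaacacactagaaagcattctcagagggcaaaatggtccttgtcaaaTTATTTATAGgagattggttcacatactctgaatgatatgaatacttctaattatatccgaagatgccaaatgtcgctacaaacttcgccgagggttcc
Myh1, chr11:67199852-67200101, plus strand: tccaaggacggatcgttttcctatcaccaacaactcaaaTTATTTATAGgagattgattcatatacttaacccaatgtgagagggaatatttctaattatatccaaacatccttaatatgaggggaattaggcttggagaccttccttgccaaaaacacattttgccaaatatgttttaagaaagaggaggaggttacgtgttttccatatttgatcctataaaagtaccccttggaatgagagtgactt
The 3 patterns read the same on both strands and do not overlap in these windows. Acta1 held an E-box 221 bases and a CArG box 73 bases before its start, and Actc1 a CArG box 47 bases before its start. Myh8 and Myh1 held the same MEF2 box, 99 and 211 bases before their starts, and the Myh3 window held none of the 3. Over 32851 RefSeq promoter windows of this length, 13.0% held the E-box, 1.47% the CArG box and 2.92% the MEF2 box. The windows lie before the RefSeq start, but that of Actc1 lies wholly and that of Myh1 partly inside a longer gene model of the GRCm38 annotation.

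Myotube-like cells varied over the range of rule gene share, and other muscle genes varied with it. Cells with 2% to 5%, 5% to 10% and 10% to 20% of UMIs from the rule genes numbered 64, 70 and 13 in KO and 235, 226 and 45 in WT at day 35, and 237, 180 and 19 in KO and 260, 185 and 11 in WT at day 25. The uppermost range thus held under 20 cells in every library but WT at day 35. Myf6, the late myogenic regulator Mrf4, was higher in the uppermost than in the lowest range, 5.02 times in KO and 5.17 times in WT at day 35, and 4.75 times in KO and 4.15 times in WT at day 25. Casq1, the calcium buffer of fast muscle, was 3.87 to 6.41 times higher and Ckm 2.81 to 7.59 times higher. Myog was nearly level, at 0.75 to 1.27 times.

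Gene lists were counted over the range as well, again as a description of cells ordered by related genes. Of 6632 genes with at least 200 UMIs outside the rule, 10.2% were higher and 22.3% lower in the uppermost than in the lowest range in all 4 libraries. Of 21 excitation-contraction coupling genes, 15 were higher in the uppermost than in the lowest range in all 4 libraries, and 0 were lower in all 4. The counts were 11 of 14 for oxidative metabolism and 14 of 24 for the Z-disc and titin. In the opposite direction, 10 of 16 immediate early and heat shock genes and 11 of 17 unfolded protein response genes were lower in all 4 libraries. Of 9 measured genes of a longer fibroblast list, 5 were lower in all 4, with Col1a1 at 134.6 CPM in the uppermost and 329.1 CPM in the lowest range of KO at day 35. The part of free RNA in these differences was not tested.

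Most muscle genes stayed within 2-fold between genotypes, among them 13 of 16 thick filament genes at day 35 and 15 of 20 at day 25. Over the summed myotube-like cells, 1.27% of 5768 genes with at least 50 UMIs were at least 2-fold higher in KO than in WT at day 35 and 1.65% were at least 2-fold lower. At day 25 the shares of 8949 genes were 1.27% higher and 0.905% lower. The median log2 ratio of all genes was 0.11 at day 35 and 0.02 at day 25. At day 35 these were 73 genes higher and 95 lower. Scaled by the median gene ratio, they were 50 higher and 128 lower. Without the highest doublet scores they were 84 higher and 62 lower. With equal weight for each range of rule gene share they were 264 higher and 80 lower. At day 25 this weighting gave 79 higher and 394 lower, against 114 and 81 in the summed cells. It sets a count of 0 within a range to 3 UMIs, which lifts such genes most in the library with fewer UMIs there. The uppermost range held 13 KO and 45 WT cells at day 35 and 19 KO and 11 WT at day 25. The part of the floor of 3 UMIs and of these cell numbers was not tested, and no direction is read from these splits. Among the other settings, the day 35 balance turned without the highest doublet scores. At a rule share of 5% or more the day 25 counts were 68 higher and 73 lower.

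Of 16 thick filament genes at day 35, 2 were higher (Myh1, 1.27, and Myh2, 1.14) and 1 lower (Myl3, -3.14). Of 20 at day 25, 2 were higher (Myh1, 1.78, and Myh4, 1.16) and 3 lower (Myl3, -2.08, Myh6, -1.47, and Smyd1, a methyltransferase of sarcomere assembly, -1.24). Few cells carried some of these: 5 cells held 66.7% of the 57 Myh2 UMIs in KO at day 35 and 58.8% of the 34 Myh4 UMIs in KO at day 25. The 10 heavy chain genes alone had 2 of 5 measured higher at day 35, and 2 of 8 higher and 1 lower at day 25. Of 16 thin filament genes, 0 passed 2-fold on either day, with medians of 0.04 at day 35 and -0.06 at day 25. Fusion genes had 0 of 8 at day 35 and 0 of 9 at day 25, with medians of 0.22 and 0.03, and endplate genes 0 of 10 and 0 of 11, with medians of 0.34 and 0.02. In excitation-contraction coupling, 1 of 21 was higher (Jph2, which tethers the triad membranes, 1.09) and 1 lower (the calcium buffer Pvalb, -1.52) at day 35. At day 25, 0 of 22 passed. The Z-disc list had 2 of 24 lower at day 35, the stretch-responsive Ankrd1 (-1.32) and Ankrd2 (-1.13), and 0 of 24 at day 25. Among myogenic regulators, 1 of 11 was lower at day 35, Myf5 (-1.06), and 0 of 14 passed at day 25. Myog stood at 2571 CPM in KO and 1881 CPM in WT at day 35, and at 2116 CPM in KO and 1705 CPM in WT at day 25.

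H19, Igf2 and other imprinted genes differed between genotypes on both days. Of 11 measured imprinted genes at day 35, 1 was at least 2-fold higher in KO and 3 lower, and of 13 at day 25, 1 was higher and 5 lower. Imprinted genes are expressed from the maternal or the paternal copy alone, and many of them act on fetal growth. The list's median was -0.44 at day 35 and 0.02 at day 25, and its members went both ways. The gene positions below are those of the GRCm38 annotation.

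H19, the maternally expressed non-coding RNA next to Igf2 (chr7:142575529-142578143), was the member at least 2-fold higher in KO. It stood at 7639 CPM in KO and 1260.2 CPM in WT at day 35, and at 8105 CPM in KO and 1606 CPM in WT at day 25. Both KO libraries were above both WT libraries. The log2 ratio was 2.60 (2.54 to 2.66) at day 35 and 2.34 at day 25, with an interval of 2.3 to 2.37. In the other barcodes the log2 ratios were 2.27 and 2.07. H19 was also higher in the myotube-like cells than in the other barcodes of each library, where it was at 954.6 CPM in KO and 197.6 CPM in WT at day 35, and at 3705 CPM in KO and 880.8 CPM in WT at day 25.

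Igf2, the paternally expressed growth factor of the same locus (chr7:142650766-142666816), ran the opposite way. It stood at 43.9 CPM in KO and 735 CPM in WT at day 35, and at 79.0 CPM in KO and 1197 CPM in WT at day 25. Both KO libraries were below both WT libraries. At day 35 the log2 ratio was -4.07 (-4.51 to -3.65), and at day 25 it was -3.92 (-4.06 to -3.78). In the other barcodes they were -3.16 and -2.24. Igf2os, the antisense transcript of the locus, was also lower at day 25, with 4 UMIs in KO and 115 in WT (-4.77). Whether reads were assigned by strand is not given in the sources used here.

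Some other imprinted genes were lower in KO and some higher. Cdkn1c, the cell cycle inhibitor p57 (chr7:143458339-143461050), stood at 47.5 CPM in KO and 305.7 CPM in WT at day 35, and at 65.5 CPM in KO and 822 CPM in WT at day 25. Its log2 ratios were -2.69 (-3.12 to -2.28) and -3.65 (-3.81 to -3.49). In the other barcodes they were -2.65 and -3.78. Igf2r, the receptor that clears Igf2 (chr17:12682406-12769664), was at 10.05 CPM in KO and 55.5 CPM in WT at day 35, and at 9.85 CPM in KO and 39.5 CPM in WT at day 25. Zim1, an imprinted zinc finger gene outside the list (chr7:6671269-6696450), had 1 UMI in KO and 81 in WT at day 35 (log2 ratio -4.93, -10.25 to -2.41), and 15 in KO and 120 in WT at day 25. Grb10, an imprinted adaptor of insulin and Igf signalling (chr11:11930508-12038683), was at 1.82 CPM in KO and 80.4 CPM in WT at day 25 (-5.46), and at 0.914 and 6.85 CPM, too few UMIs for a ratio, in KO and WT at day 35. Zim1 in the other barcodes had -6.35 (-9.42 to -4.47) at day 35 and -4.30 at day 25, and Grb10 had -4.64 at day 25. Dlk1 was at 392 CPM in KO and 700.2 CPM in WT at day 35, and at 898 CPM in KO and 2023 CPM in WT at day 25, so it passed 2-fold at day 25 only (-0.84 and -1.17, a difference that was not tested). Meg3, the maternal non-coding RNA of the Dlk1 locus, did not pass 2-fold on either day (-0.39 and 0.17). Above 0 on both days but within 2-fold were Peg3 (0.82 and 0.64), Mest (0.38 and 0.84) and Ndn (0.22 and 0.52).

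**Figure D3:**
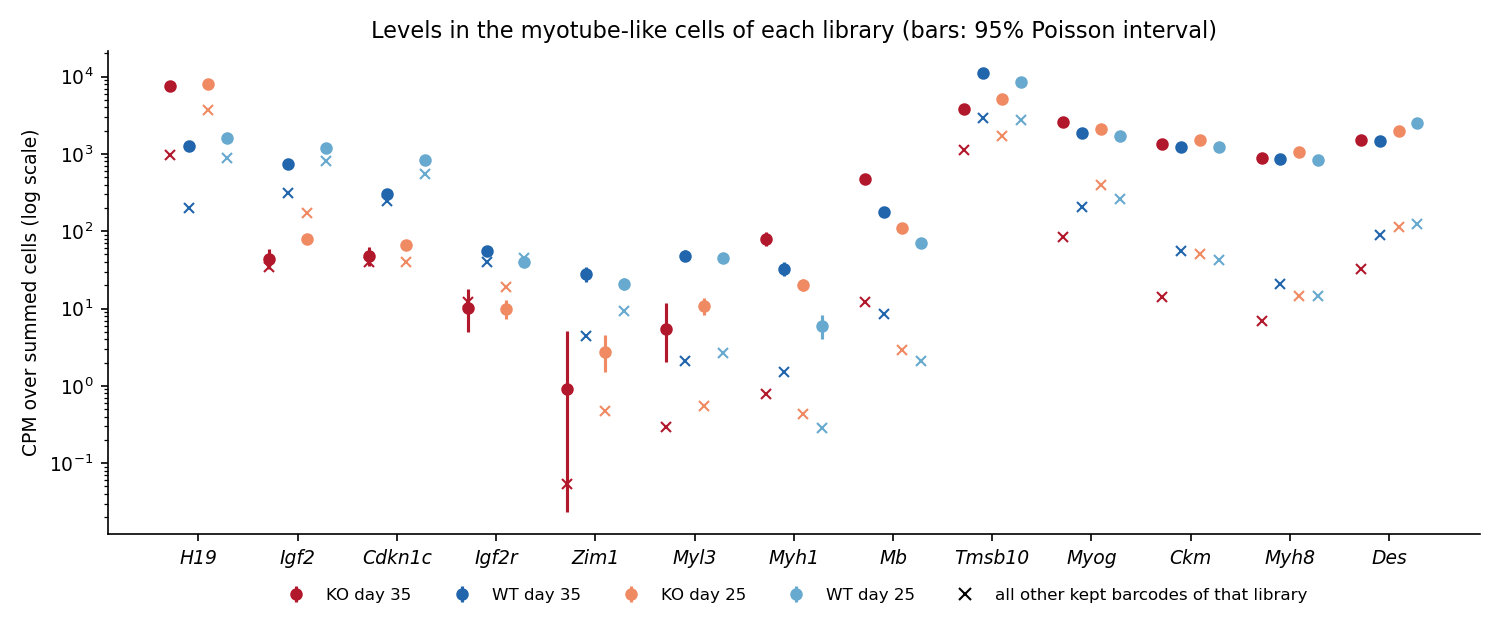
Levels of 13 genes (CPM over summed cells, log scale, y axis) in the myotube-like cells of each library (circles, with exact 95% Poisson intervals) and in all other kept barcodes of that library (crosses). H19 stood at 7639 and 8105 CPM in the KO libraries against 1260.2 and 1606 CPM in the WT libraries, Igf2 at 43.9 and 79.0 CPM against 735 and 1197 CPM, while Ckm, Myh8 and Des lay close together.

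H19 UMIs were found in every KO myotube-like cell and in part of the WT ones. The lowest, median and highest levels were 464.5, 6341 and 34097 CPM in KO at day 35, against 0, 127.8 and 22769 CPM in WT. At day 25 they were 734.8, 6560 and 42469 CPM in KO, against 0, 236.1 and 13090 CPM in WT. H19 was at 0 UMIs in 0 KO cells on either day, in 45.3% of WT cells at day 35 and in 22.4% at day 25. At 1000 CPM or more, a limit chosen after the values were seen, lay 98.0% of cells in KO and 31.4% in WT at day 35, and 99.5% in KO and 43.2% in WT at day 25. Between 500 and 2000 CPM lay 10.2% of cells in KO and 16.8% in WT at day 35, and 3.90% in KO and 11.8% in WT at day 25, so the limit marks a range and not a type. When each cell was thinned to 3000 UMIs, H19 was found in 100% of myotube-like cells in KO and 46.3% in WT at day 35, and in 100% in KO and 57.9% in WT at day 25. The other barcodes gave 58.3% in KO and 23.6% in WT at day 35, and 94.4% in KO and 50.3% in WT at day 25. Detection was thus also common outside the myotube-like cells, among barcodes that include the Myog and progenitor gates. The part of free RNA was not tested.

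Igf2 was found in most WT and few KO cells. It was at 0 UMIs in 91.2% of myotube-like cells in KO and 15.8% in WT at day 35, and in 76.8% in KO and 0.439% in WT at day 25. When each cell was thinned to 3000 UMIs, which left out 117 WT cells of day 35, Igf2 was found in 6.80% (3.31 to 12.1) of cells in KO and 81.5% in WT at day 35. At day 25 it was found in 11.7% in KO and 91.9% in WT. In the other barcodes of the KO libraries it was found in 5.85% at day 35 and 17.1% at day 25 after thinning. Detection in KO myotube-like cells thus lay within counting error of that of the rest at day 35 and below it at day 25. Within WT, cells at 1000 CPM of H19 or more held less Igf2 than cells under it, 495.3 against 848.2 CPM at day 35 and 824.4 against 1483 CPM at day 25. Cdkn1c did not follow, at 439.7 against 242.6 CPM at day 35 and 674.2 against 935.8 CPM at day 25.

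**Figure D4:**
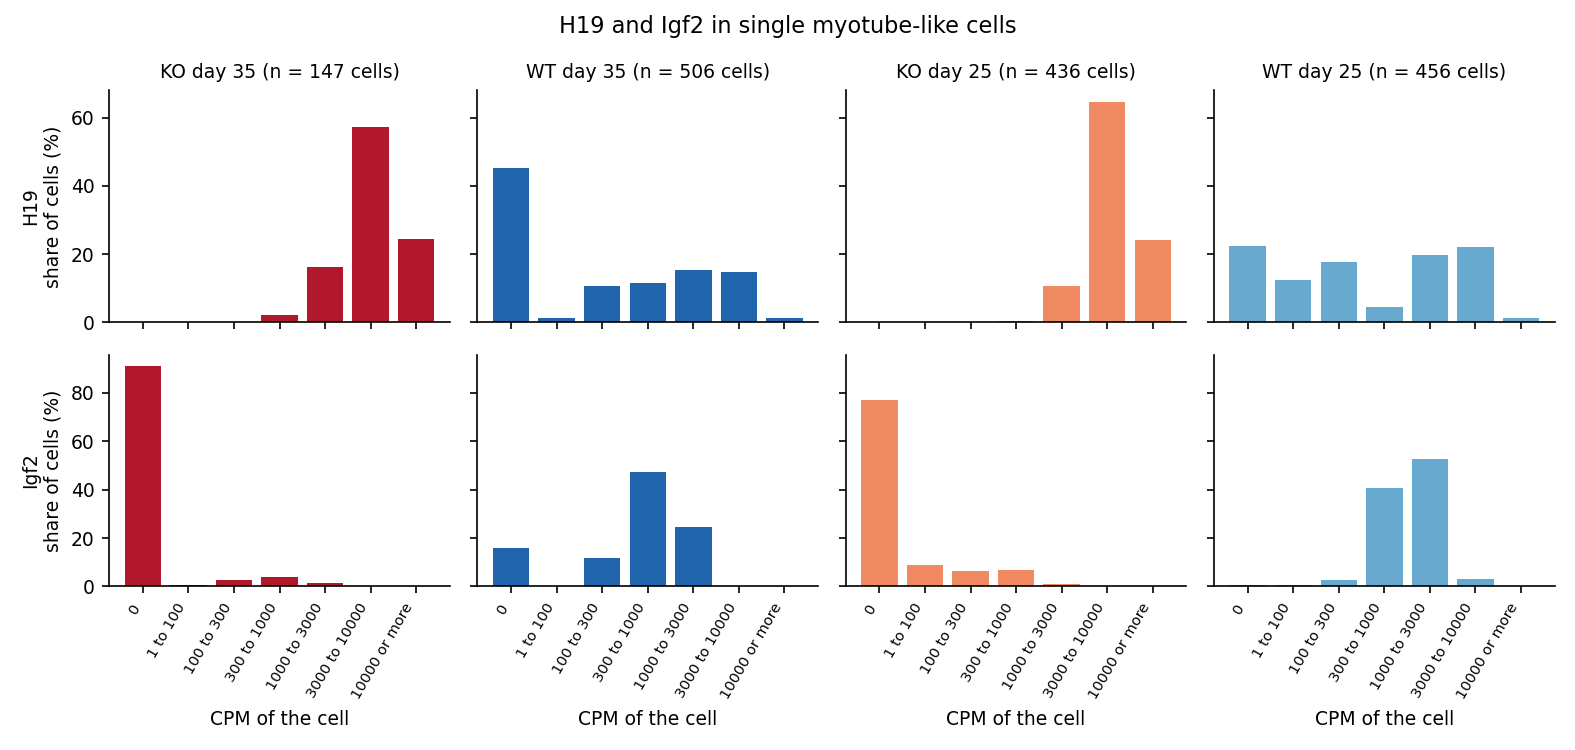
Share of myotube-like cells (percent, y axis) by the level of H19 (upper row) and Igf2 (lower row) in the cell (CPM ranges, x axis), 1 column per library. KO cells gather above 1000 CPM of H19 and at 0 of Igf2 (91.2% and 76.8%), and WT cells spread over all ranges of H19, with 45.3% and 22.4% at 0.

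Beside the imprinted genes, 3 genes met the rule for higher levels in KO on both days. Myh1, the type IIx myosin described above, stood at 79.5 CPM in KO and 32.9 CPM in WT at day 35, and at 20.2 CPM in KO and 5.89 CPM in WT at day 25. Its log2 ratios were 1.27 (0.84 to 1.71) and 1.78 (1.22 to 2.38). It was found in 15.6% of thinned cells in KO and 7.2% in WT at day 35, and in 3.44% in KO and 1.32% in WT at day 25, against at most 0.66% of the other barcodes. Acsl6, an acyl-CoA synthetase for long fatty acids, was at 41.1 CPM in KO and 19.2 CPM in WT at day 35 and at 23.0 CPM in KO and 7.28 CPM in WT at day 25. Its log2 ratios were 1.10 and 1.66, with 0.86 and -0.05 in the other barcodes. The non-coding RNA gene Gm26917 had log2 ratios of 1.17 and 1.08, with 0.90 and 0.72 in the other barcodes.

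Genes lower in KO on both days were few besides Igf2, Cdkn1c, Zim1 and Igf2r. Myl3, the slow and ventricular myosin light chain, stood at 5.48 CPM in KO and 48.3 CPM in WT at day 35, and at 10.8 CPM in KO and 45.4 CPM in WT at day 25. Its log2 ratios were -3.14 (-4.61 to -1.98) and -2.08 (-2.51 to -1.66), and -2.81 and -2.28 in the other barcodes. Few cells carried it, 3 in KO and 22 in WT at day 35 and 11 in KO and 31 in WT at day 25. Saa3, an acute phase protein, and Lcn2, a lipocalin, were lower by log2 ratios of -3.17 and -1.25 and of -1.48 and -1.76. A single WT cell held 37.0% of Saa3 UMIs at day 35 and another 33.3% at day 25. For Lcn2 the top WT cell held 23.8% at day 35 and 12.2% at day 25. In the other barcodes Saa3 was at 183.9 to 1072 CPM, against 12.8 to 114.8 CPM in the myotube-like cells, and Lcn2 at 234.4 to 899.6 CPM, against 20.1 to 79.2 CPM. The part of free RNA was not tested. Fbxw7, a substrate receptor of a ubiquitin ligase, had -1.88 and -1.02, and the peptidase-like Npepl1 -1.18 and -1.16, with values between -0.51 and 0.20 for both genes in the other barcodes.

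At day 35 alone, the oxygen store myoglobin was prominent. Mb stood at 470.5 CPM in KO and 174.8 CPM in WT at day 35, a log2 ratio of 1.43 (1.25 to 1.61), and at 108.5 CPM in KO and 70.0 CPM in WT at day 25 (0.63). It was found in 38.8% (30.9 to 47.1) of thinned cells in KO and 22.1% (18.1 to 26.6) in WT at day 35. Others ranked high that day were Tbx1 (1.52), a T-box factor of pharyngeal mesoderm and head muscle, Pea15a (1.45), the lysosomal protease Ctsc (1.69), H2-D1 (1.47) of antigen presentation, and Txnip (1.25), which restrains glucose uptake. In KO, 5 cells held 53.1% of the 49 H2-D1 UMIs, 45.9% of the 109 Txnip UMIs and 40% of the 40 Ctsc UMIs. For Tbx1 and Pea15a, 5 cells held 33.3% and 35.7%. H2-D1 and Txnip each fell within 2-fold in 1 other setting. S100a8 (2.37) had 66.7% of its KO UMIs in 1 cell. Gm6619 (-4.31) and the retinoic acid-binding Crabp1 (-4.74) were lower, with 2 and 1 UMIs in KO and 47.2% of the WT UMIs of Gm6619 in 1 cell.

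At day 25 alone, the 8 genes ranked highest were Ccl12, Lyz2, C1qa, Pf4, C1qc, Tyrobp, Fcer1g and C1qb, all expressed by macrophages. Of their KO UMIs, 87.6% to 97.9% came from 1 barcode with 73500 UMIs, the most of any myotube-like cell, and 3.6% rule genes. Ccl12 had 231 of its 237 UMIs there. WT had 0 UMIs of 6 of these genes and 1 each of Lyz2 and Fcer1g. Whether that barcode holds more than 1 cell was not tested. Without it, an alternative chosen after seeing the data, the day 25 counts were 94 higher and 80 lower, against 114 and 81 with it. Krt14 (-3.62), a basal keratinocyte keratin, and Oc90 (-4.11), an otoconial protein, were lower, at 2.74 and 0.912 CPM in KO and 33.6 and 15.8 CPM in WT. Both were higher in the other barcodes, at 52.5 and 8.14 CPM in KO and 255.7 and 68.5 CPM in WT. Of their WT UMIs in myotube-like cells, the top cell held 22.2% for Krt14 and 38.5% for Oc90. Rhox13 had 0 UMIs in KO and 51 in WT, 16.1-fold lower when 3 UMIs are taken as the KO floor. The interval of that log2 ratio (-4.01) ended at -3.66.

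Some lists leaned to 1 side, with most members within 2-fold. Beside them, the median log2 ratio of all measured genes was 0.11 at day 35 and 0.02 at day 25. The share of all genes above 0 was not counted. A list of glycolysis genes, which also holds the mitochondrial creatine kinase Ckmt2, was higher in KO in 17 of 18 members at day 35. Its median was 0.40, with 0 past 2-fold. At day 25, 13 of 20 were higher, with a median of 0.13 and 1 past 2-fold (Ckmt2, 1.497). Cholesterol synthesis genes were lower in 13 of 14 at day 35 (median -0.52), 2 of them past 2-fold, with Sqle at 19.2 CPM in KO and 38.4 CPM in WT. At day 25 the cholesterol median was -0.04. Unfolded protein response genes were lower in 15 of 17 at day 25 (median -0.40), 1 of them past 2-fold (Sdf2l1, -1.56), where the chaperone Hspa5 was at 289.3 CPM in KO and 440.1 CPM in WT. Their day 35 median was 0.07. Cell cycle genes were higher in 13 of 14 at day 25 (median 0.59), with 3 past 2-fold, among them Pcna at 15.1 CPM in KO and 6.41 CPM in WT. Genes of the fibroblast list were also higher in KO, in 7 of 7 at day 35 and 9 of 10 at day 25, and their part in these lists was not tested. Tmsb10, the actin monomer-binding thymosin beta 10, was at 3844 CPM in KO and 11104 CPM in WT at day 35, and at 5203 CPM in KO and 8533 CPM in WT at day 25, log2 ratios of -1.53 and -0.71.

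More genes differed between days than between genotypes. In KO, 2.72% of 7543 genes were at least 2-fold higher at day 35 than at day 25 and 7.01% lower. In WT, 3.83% of 8195 genes were higher and 7.55% lower, or 314 and 619 genes. Scaled by the median gene ratio the WT split was 407 higher and 467 lower. With equal weight for each range of rule gene share the KO split was 459 higher and 276 lower, against 205 and 529 in the summed cells. In WT it was 269 higher and 911 lower. The uppermost range held 13 cells at day 35 and 19 at day 25 in KO, and 45 and 11 in WT. In KO the balance thus turned with the weighting, and no direction is read from it. A 0 within a range was set to 3 UMIs, and the part of that floor in these splits was not tested. In both genotypes at once, with intervals that left out no change, 95 genes were higher and 186 lower.

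Several genes of mature and oxidative muscle were higher at day 35, though the Z-disc, excitation-contraction coupling and thick filament lists did not lean upwards. Cox7a1, the muscle subunit of cytochrome oxidase, stood at 170.9 CPM at day 35 and 47.2 CPM at day 25 in KO, and at 120.6 CPM at day 35 and 17.3 CPM at day 25 in WT. Both day 35 libraries were above both day 25 libraries, and the log2 ratios were 1.85 (1.58 to 2.13) in KO and 2.80 (2.48 to 3.13) in WT. Cox7a1 was also higher at day 35 in the other barcodes, by 1.95 in KO and 1.74 in WT. Tcap, the titin cap of the Z-disc, had 336.2 CPM at day 35 and 112.7 CPM at day 25 in KO, and 198.8 CPM at day 35 and 69.7 CPM at day 25 in WT. In KO at day 35, 1 cell held 21.2% and 5 cells held 42.4% of Tcap UMIs. Sln was at 2910.02 CPM at day 35 and 1190 CPM at day 25 in KO, and at 4077 CPM at day 35 and 1245 CPM at day 25 in WT. Mb (2.12 in KO and 1.32 in WT), Myh1 (1.97 and 2.48), the mitochondrial creatine kinase Ckmt2 (1.32 and 1.92) and Trdn, the triadin of the triad (0.93 and 1.51), were also higher. At day 25, 5 cells held 47.9% of Mb UMIs in KO and 55.9% in WT. The oxidative metabolism list had medians of 0.46 in KO and 0.25 in WT, with 2 of 14 at least 2-fold higher and 1 lower in KO (the fatty acid transporter Cd36, -1.80) and 3 of 14 higher and 0 lower in WT. The median log2 ratio of all measured genes was 0.02 in KO and -0.11 in WT, and the share of all genes above 0 was not counted. Counted by direction alone, 9 of 24 Z-disc genes were higher and 15 lower in KO, and 11 and 13 in WT. Excitation-contraction coupling had 10 higher and 11 lower in KO and 9 and 13 in WT. The thick filament list had 8 higher and 9 lower in KO and 5 and 13 in WT. The glycolysis list, which holds Ckmt2, had 8 higher and 10 lower in KO and 7 and 12 in WT, and the endplate list 3 and 7 in KO and 0 and 11 in WT.

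The genes that led the day comparison upwards were of several kinds. Vamp5, a vesicle protein enriched in muscle, stood at 62.1 CPM at day 35 and 10.4 CPM at day 25 in KO, and at 56.9 CPM at day 35 and 3.47 CPM at day 25 in WT (2.58 and 4.04). Cdkn2a, which encodes the cell cycle inhibitor p16, had log2 ratios of 2.29 (1.63 to 2.95) in KO and 3.53 (3.00 to 4.10) in WT, and 1.29 and 1.57 in the other barcodes. Gpx3, a secreted glutathione peroxidase, had 2.11 and 2.33, and Tspo, of the outer mitochondrial membrane, 1.79 and 2.37. The EF-hand genes S100a4 (2.22 and 2.44) and S100a1 (2.21 and 1.82), Gng11 (2.07 and 2.58) and Fbxo2 (2.09 and 2.55) completed the 10. S100a1 and Fbxo2 were 3.22 and 3.64 higher in the other barcodes of KO, and 55.9% of the day 25 KO UMIs of Fbxo2 lay in 1 cell. In KO at day 35, 1 cell held 36.7% of S100a1 UMIs, and 5 cells held 69.0% of Fbxo2 and 58.8% of S100a4 UMIs.

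Genes of several kinds were lower at day 35. Besides Actc1 (-1.40 in KO and -2.15 in WT) and Myh3 (-0.82 and -1.06), they included Vgll2, a muscle cofactor of TEAD factors (-2.26 and -2.16), the muscle cadherin Cdh15 (-1.36 and -1.52) and the intermediate filament Vim (-2.01 and -2.58). Vim stood at 177.3 CPM at day 35 and 716.2 CPM at day 25 in KO, and at 159.02 CPM at day 35 and 948.2 CPM at day 25 in WT. It was also lower in the other barcodes, by -1.20 in KO and -1.70 in WT. Il17b, a cytokine gene, was at 10.96 CPM at day 35 and 106.5 CPM at day 25 in KO, and at 7.54 CPM at day 35 and 162.02 CPM at day 25 in WT. Fabp5 (-2.88 and -2.24) and Fabp4 (-2.74 and -2.22), which carry fatty acids, Basp1 (-3.99 and -2.46) and the antisense gene 4930512H18Rik (-4.44 and -3.97) were lower too. The histone gene Hist1h2ap had 0 UMIs at day 35 and 422 at day 25 in KO, 28.1-fold lower when 3 UMIs are taken as the day 35 floor. The interval of that log2 ratio (-4.81) ended at -4.51, and the WT log2 ratio was -3.06. In the other barcodes the Hist1h2ap log2 ratios were -4.34 in KO and -4.37 in WT. At day 25 in KO, 48 of 436 cells carried Hist1h2ap, and 5 cells held 71.6% of its UMIs. The glycolytic Pgk1 was lower as well (-2.0 and -1.41).

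Imprinted genes were lower at day 35 in both genotypes. Of 12 measured in KO, 7 were at least 2-fold lower and 0 higher (median -1.53), and of 13 in WT, 9 were lower and 0 higher (median -1.43). Meg3 stood at 1703 CPM at day 35 and 8559 CPM at day 25 in KO, and at 2229 CPM at day 35 and 7603 CPM at day 25 in WT, log2 ratios of -2.33 and -1.77. Mest (-2.51 and -2.05), Ndn (-2.44 and -2.14) and Nnat (-2.85 and -4.88) were among them. H19 and Igf2 did not pass 2-fold between days (-0.09 and -0.35 for H19, -0.85 and -0.70 for Igf2). Ndn and Nnat were lower in the other barcodes too, by -1.24 and -1.73 in KO and -1.55 and -4.08 in WT.

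Immediate early and heat shock genes were higher at day 35, at least 2-fold in 9 of 17 in each genotype and with medians of 1.02 in KO and 1.0 in WT. Fos stood at 587.5 CPM at day 35 and 230.4 CPM at day 25 in KO, and at 647.7 CPM at day 35 and 191.5 CPM at day 25 in WT. Many of these genes are known to respond quickly to cell dissociation. The median mitochondrial share of the myotube-like cells was also higher at day 35, at 5.18% in KO and 6.13% in WT, against 3.75% in KO and 4.02% in WT at day 25. The part of dissociation and of RNA quality in the day comparison was not tested.

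**Figure D5:**
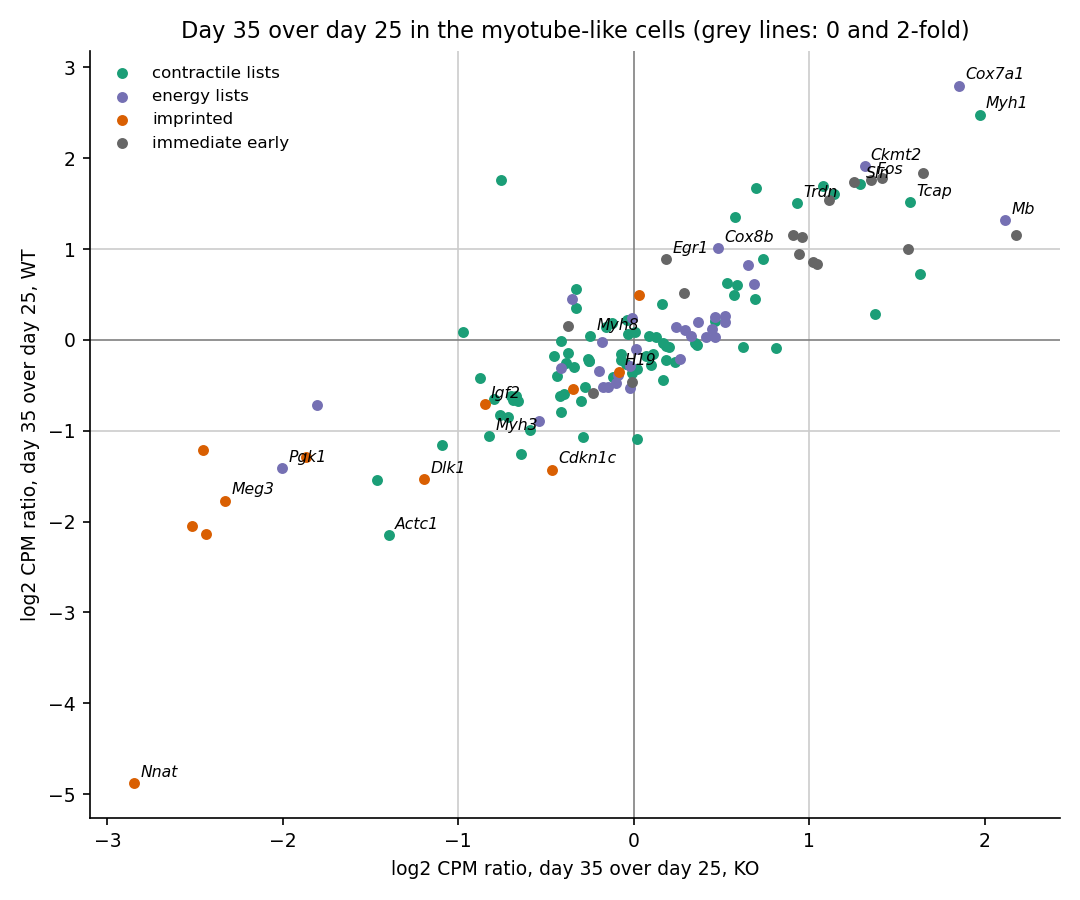
Log2 CPM ratio of day 35 over day 25 in the myotube-like cells of KO (x axis) and of WT (y axis) for measured genes of the contractile, energy, imprinted and immediate early lists, 1 point per gene, with grey lines at 0 and at 2-fold. Cox7a1 (1.85 and 2.80) and Myh1 (1.97 and 2.48) lie at the upper right, Meg3 (-2.33 and -1.77) and Actc1 (-1.40 and -2.15) at the lower left.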

How the data were processed

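The deposited values are whole-number UMI counts per gene and barcode, made by the authors. Tools named in the submitters' processing notes are bcl2fastq, Cell Ranger 2.1.0, R 3.5.1 and Seurat 2.3.1, with GRCm38 and mm10 as builds. How reads of several genes and strands were counted is not given in the sources used here. Per the labels, libraries were made with the v2 droplet kit. Matrices held 7077 barcodes for KO and 9250 for WT at day 35, and 11307 for KO and 9963 for WT at day 25, with 40518939 UMIs for KO and 35749960 for WT at day 35, and 85808118 for KO and 75064434 for WT at day 25.

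Barcodes were filtered and chosen by the stated rule. UMIs of the chosen cells were summed per library and divided by all their UMIs. Genes with at least 50 UMIs over both libraries were compared, leaving the 7 rule genes out of the counts. Ratios have exact conditional 95% intervals, and a count of 0 was set to 3. Doublets were scored by nearest neighbours among simulated pairs (scikit-learn 1.9.0), which marked 362 kept barcodes of KO and 533 of WT at day 35, and 1002 of KO and 763 of WT at day 25; they were left in the reported values. Python 3.11.15, numpy 2.4.6, scipy 1.17.1 and pandas 2.3.3 were used. The calculation was tested on simulated data. Genes were named when at least 2-fold different in 1 direction in both comparisons of a pair with intervals that left out no change (at most 10 each way by the interval bound nearest 0), or among the 8 highest and 8 lowest of 1 day. List members were named besides, leaving out ribosomal and mitochondrially encoded genes and Tmprss3.

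The cells and the gene lists were chosen with earlier results of these data known. Alternatives changed the limits on rule genes, mitochondrial share, genes and UMIs, the scaling, the weighting and the treatment of doublets.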

Additional observations from a re-analysis of the deposited data

Results flagged for a closer look

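The share of myotube-like cells moved in opposite directions between days in the 2 genotypes. The ratio of day 35 to day 25 was 0.561 (0.462 to 0.677) in KO, with 147 of 6729 kept barcodes at day 35 and 436 of 11190 at day 25. It was 1.33 (1.17 to 1.51) in WT, with 506 of 8166 at day 35 and 456 of 9768 at day 25. The difference between these ratios was not tested, since each genotype and day is 1 library. The mitochondrial limit removed 30.7% of otherwise eligible barcodes in KO and 36.9% in WT at day 35, against 6.24% and 6.37% at day 25. Of all barcodes with at least 500 genes it removed 4.89% in KO and 11.6% in WT at day 35. At day 25 these shares were 1.01% in KO and 1.96% in WT. The part of the limit in the ratios is given by the values without it, 0.728 in KO and 1.78 in WT.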

How the results depend on the processing

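No paired analysis was possible because each group has 1 library. Of 32 other values of the member share, 23 moved by less than the counting interval of the main value. At 10% of rule genes or more, where 19 or fewer cells were left in every library but WT at day 35, the ratio turned to 1.51 (0.682 to 3.51) for KO over WT at day 25 and to 1.14 (0.516 to 2.43) for day 35 over day 25 in KO, and it was 4.89 in WT. At 5% the day ratios were 0.694 in KO and 1.65 in WT, with no mitochondrial limit 0.728 and 1.78, and at a limit of 5% 0.439 and 1.10. Genes at least 2-fold different numbered 168 and 195 for KO over WT at day 35 and day 25, and 734 in KO and 933 in WT for day 35 over day 25. At 20 UMIs they were 600, 547, 1418 and 1563, and at 200 UMIs 29, 52, 188 and 349. With equal weight for each range of rule gene share they were 344 (264 higher and 80 lower) and 473 (79 higher and 394 lower) for KO over WT, and 735 (459 higher and 276 lower) for the days in KO. The balance turned in all 3, so no direction is read from these counts. That weighting sets a 0 within a small range to 3 UMIs, and the part of that floor in the weighted counts was not tested. The minimum of UMIs sets how many genes are counted. Of 50 counts under other settings, 40 stayed within 1.5 times. Without the 1 barcode rich in macrophage genes, a setting chosen after seeing the data, the counts were 174 for KO over WT at day 25 and 706 for the days in KO. None of the 1041 values of named genes under other settings changed direction, and 99 moved. Of 88 named results, 75 stayed past 2-fold in every setting run, and the exceptions include Myh1, Acsl6, Gm26917, Lcn2, Saa3 and Fbxw7. At a rule share of 5% or more Myh1 had 0.97 at day 35 and Saa3 -0.89 at day 25. Of 985 list medians, 974 did not move. Depth limits the day 35 values of KO, which rest on 147 cells and 1094496 UMIs.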
